A study of Mus musculus with 45 samples.

Results

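Gene expression in the adult mouse heart was compared with that in the embryonic heart at E12.5, when the chambers have formed and their walls are growing by cell division. The adult stage had 2 RNA-seq libraries and E12.5 had 1, each made from poly(A)-selected RNA of heart tissue. A gene entered the account if it reached 5 FPKM (fragments per kilobase, scaled to sequencing depth) in the adult mean or in E12.5. Of 23284 genes listed, 8802 did so. Ribosomal protein genes (83) and other genes with processed pseudogenes or near-identical copies (348) were set aside, because short reads cannot be assigned among such copies, and 8371 genes remained. The series holds 45 samples, of which 39 are not RNA-seq libraries. The labels call the tissue primary heart tissue and give no strain, sex, chamber or exact adult age. They name 4 alleles for the study as a whole (Gata4fbio, Rosa26BirA, Gata4flox and cTNTcre, a Cre under the cardiac troponin T promoter), without saying which of them the adult and E12.5 libraries carried. The RNA was pooled, and no label ties the adult libraries to separate animals, so every p-value below measures only the spread between these libraries.

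The embryonic ventricle grows by division of its muscle cells, lives in low oxygen and burns mainly sugar. After birth the muscle cells of the mouse heart largely leave the cell cycle, enlarge, build transverse tubules and pack their volume with mitochondria that burn fatty acids, lactate and ketone bodies. Over the same time the coronary capillary bed expands, nucleated red cells of yolk sac origin disappear from the blood, and several contractile and metabolic proteins are exchanged for a second form encoded by a related gene.

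Levels are given as log2(FPKM + 1), and a difference is the adult mean minus E12.5 on that scale, so that 1 unit is close to a 2-fold change for well expressed genes. Genes were tested with limma on the 12658 genes that reached 1 FPKM in at least 1 of the 3 libraries, and a gene was called when its adjusted p was below 0.05. The spread came from the adult pair, and E12.5, with its single library, was taken to have the same spread. A second rule, with no test, asked for a 2-fold ratio of FPKM in the same direction against each adult library. The libraries held 12619710 and 12357585 mapped reads in adult and 21056784 in E12.5. The transcription factor Gata4, the subject of the study, stood at 3.78 and 3.28 in the adult libraries and at 5.93 in E12.5, a difference of -2.40 (SE 0.29, adjusted p = 0.0137). The other E12.5 library of the series, labelled Gata4 KO, was kept out of the comparison and used only as an alternative. Gata4 stood at 6.13 in it, not below the other E12.5 library.

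Of the 12658 genes tested, limma called 2965 higher in adult (23.4%) and 6123 lower (48.4%). Of the 8371 genes compared, it called 2122 higher in adult (25.3%) and 4273 lower (51.0%). By the rule of size 1411 were higher (16.9%) and 3306 lower (39.5%), or 2171 (25.9%) and 2152 (25.7%) after median-of-ratios scaling. The same rule picked out 24 genes between the adult libraries (0.287%) and 171 between the E12.5 libraries (2.04%). The median size of the difference between stages was 1.15, against 0.13 between the adult libraries. This excess of lower genes moved with the scaling chosen. Over the genes tested, the median difference was -0.51 on the values as deposited and -0.03 after median-of-ratios scaling, and on that scale 3007 of the 8371 genes were called higher (35.9%) and 3048 lower (36.4%). Because a gene enters through the stage in which it is high, counts over a group describe the genes expressed at 1 stage or more and not the whole pathway. Differences below are on the deposited scale, whose median over the 8371 genes was -0.58, and a group is best read against that value.

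The difference between stages also ran with gene length, which bears on every group of short or long genes. Among the 359 genes of up to 750 bases the median difference was -2.02, with 73.5% called lower and 14.2% higher. It was -1.06 in the 942 genes over 1000 and up to 1500 bases, -0.65 in the 1910 genes over 2000 and up to 3000 bases, and 0.01 in the 881 genes over 6000 bases, of which 33.7% were lower and 36.4% higher. Between the adult libraries the medians lay between -0.04 and 0.01 in every class of length, and between the E12.5 libraries they lay between -0.26 and 0.02. What underlies this relation was not tested. Each group below is therefore given also after scaling the libraries to each other within 20 classes of gene length. On that scale 2994 genes were called higher (35.8%) and 3027 lower (36.2%), and the median was -0.05. This scaling was chosen after the data had been seen. The labels do not say whether the counting used strand, so genes that overlap another protein-coding gene in RefSeq are uncertain. Among the genes named below these are Adck3, Ampd2, Atp5d, B2m, Cad, Cnp, Coq4, Coq6, Coq9, Cox4i2, Cox6a2, Foxm1, Fzd4, Gins2, Hars, Idh3b, Il11ra1, Lrtm1, Map1lc3b, Mapre1, Mb, Mest, Mfn1, Mtap1a, Mybpc2, Myh6, Myl2, Myl4, Mylpf, Ncapg, Nhp2, Nipbl, Nup43, Orc4, Pcca, Pdha1, Pfkm, Pfkp, Plvap, Prdx5, Rara, Smc1a, Srsf2, Thrb, Tk1, Tpr, Tuba4a, Wdr12 and Zbtb16.

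**Figure D1:**
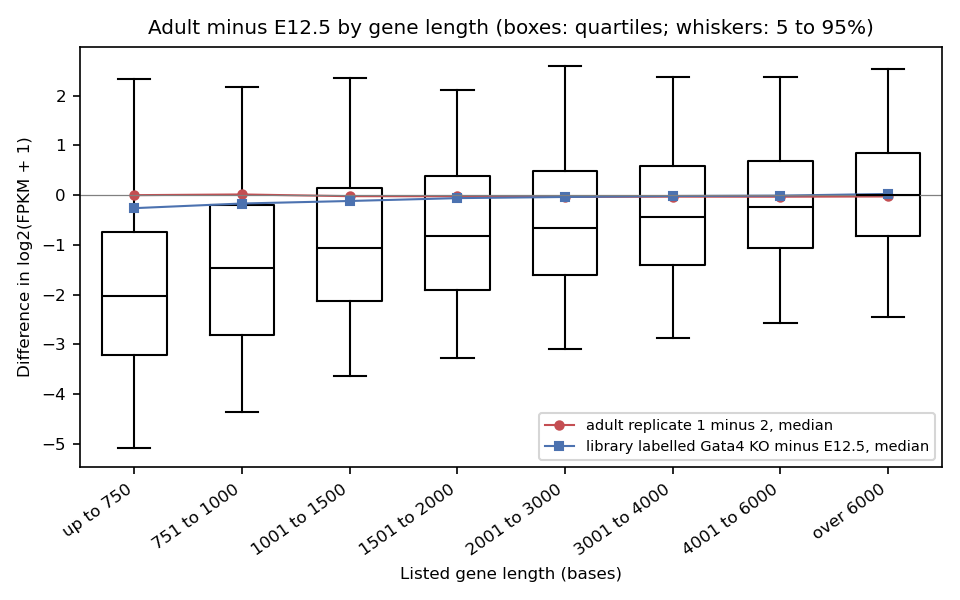
Adult minus E12.5 difference in log2(FPKM + 1) (vertical axis) by listed gene length in bases (horizontal axis); boxes show the quartiles of the genes and whiskers the 5th to 95th percentile, circles the median of adult replicate 1 minus replicate 2 and squares that of the library labelled Gata4 KO minus E12.5. The boxes climb from a median of -2.02 in the shortest genes to 0.01 in the longest, while the circles stay near 0.

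The 10 largest called increases in adult ran from 5.65 to 8.05. Myom2, an M-band protein that ties thick filaments together, stood at 8.40 and 8.38 in adult and at 0.34 in E12.5 (difference 8.05, SE 0.06, adjusted p = 0.00398). Ckmt2, the creatine kinase of muscle mitochondria, stood at 10.37 and 10.29 against 2.63. The other genes among the 10 with the largest increase were the actin-binding Xirp2 (7.68), Lrrc2 (7.01), the fatty acid carrier Fabp4 (6.65), the titin-associated Ankrd23 (6.5), the fatty acid transporter Cd36 (6.39), the tubulin Tuba8 (6.28), Rgs5 of pericytes (6.21) and Lrtm1 (5.65). In each of these 10 genes both adult libraries lay above E12.5 by more than 5 units, and the adult libraries differed from each other by less than 0.5.

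In the other direction, Hbb-y, Hbb-bh1 and Hba-x, the globins of the embryo, stood at 13.71, 9.45 and 12.78 in E12.5 and had no read in adult. With 3 reads in an adult library as the floor, Hbb-y was at least 34234-fold higher in E12.5 and Tnni1, the troponin I of the fetal heart, at least 7233-fold. The imprinted RNA H19 stood at 3.32 and 3.10 in adult against 12.30, and the growth factor Igf2 at 4.54 and 4.72 against 11.48. Cited1, a transcriptional coregulator of the embryo, stood at 0.32 and 0.22 against 8.79 (difference -8.53). Mest, another imprinted gene, differed by -7.56, the atrial light chain Myl7 by -7.34 and the microfibril protein Mfap2 by -6.27. Myl7 was the least even of these, with 4.65 in adult replicate 1 and 3.27 in replicate 2 (SE 0.75, adjusted p = 0.0109). In bulk tissue fewer cells of a type and less RNA per cell cannot be told apart, and this holds for every group below.

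**Figure D2:**
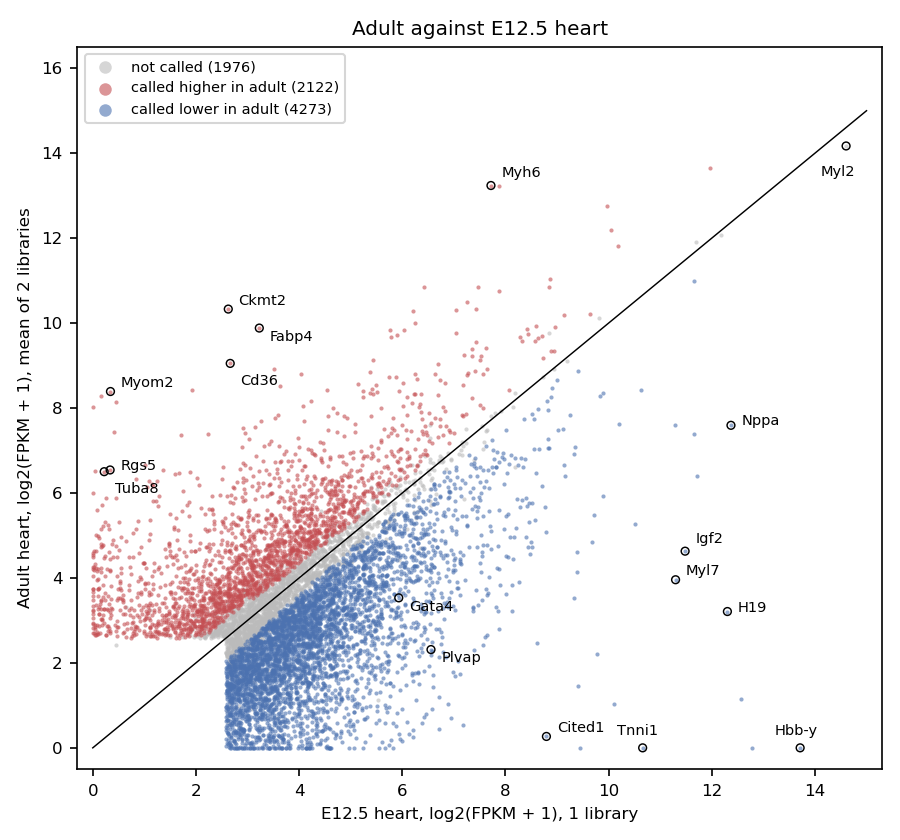
Each point is 1 of the 8371 genes, with its level in the E12.5 library on the horizontal axis and its mean level in the 2 adult libraries on the vertical axis, both as log2(FPKM + 1); red points were called higher in adult by limma (2122), blue points lower (4273), and the line marks equal levels. Myom2, Rgs5 and Tuba8 lie at the left edge high above the line, and Hbb-y and Tnni1 lie on the floor at the right.

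Muscle genes were among the most abundant transcripts at both stages, joined at E12.5 by embryonic globins and H19. In adult the 10 highest were Myl2, Tnnt2, Myh6, Mb, Tpm1, Tnni3, Actc1, Myl3, Cox6a2 and the nuclear RNA Malat1. At E12.5 they were Myl2, Hbb-y, Hba-x, Nppa, H19, Actc1, Tnnt2, Myl4, Myl3 and Tnnc1, so that Myl2, Tnnt2, Actc1 and Myl3 were among the highest at both stages. Myl2, the ventricular regulatory light chain, led both lists at 14.18 and 14.16 in adult and 14.60 in E12.5, a difference of -0.43 that did not pass (adjusted p = 0.139) and was 1.01 within length classes. Actc1, cardiac actin, stood at 12.14 and 12.02 against 12.18 (adjusted p = 0.542), and was 0.88 within length classes. Both Myl2 and Actc1 were called higher on that scale. Mb, the oxygen store myoglobin, was called higher by 5.34 and Tpm1, tropomyosin, by 2.79, while Tnnc1, cardiac troponin C, was called lower by 0.68 on the deposited scale and higher by 0.46 after scaling within length classes.

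Genes of cell division were lower in adult. All 22 genes of the spindle and of cytokinesis that reached 5 FPKM (of 26 listed) were lower in adult, as were 22 of 23 kinetochore and centromere genes (of 28 listed), on the deposited scale and within length classes alike. Their medians were -3.48 and -3.15. Cdca8, a subunit of the chromosomal passenger complex that corrects faulty attachments to the spindle, stood at 0.47 and 0.68 in adult and at 5.49 in E12.5. Its partner Birc5 stood at 0.62 and 0.75 against 5.25. Bub1b, a kinase-like protein of the spindle checkpoint, stood at 0.50 and 0.61 against 5.05 (difference -4.50, SE 0.13, adjusted p = 0.00398). Cenpm, Bub1 and Mad2l1 differed by -4.41, -4.29 and -4.07, and the cytokinesis regulators Ect2 and Racgap1 by -4.33 and -4.22.

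Many promoters of mitotic genes carry a cell cycle homology region (CHR), whose core is TTTGAA, together with CCAAT boxes, the elements through which the DREAM and MuvB complexes and NF-Y are known to act. In the RefSeq promoter windows of GRCm38.p6, which run from 250 bases before to 50 after each start, both motifs (TTTGAA and CCAAT on either strand, overlaps allowed) were found in 20 of 44 windows of the kinetochore, spindle and cytokinesis genes (45.5%). The same pair was in 6.95% of all 32851 windows and in 4.91% of the 8528 windows of the genes compared here. The 44 windows belong to 37 of the 45 genes. TTTGAA alone was in 59.1% of the mitotic windows and in 17.9% of all. For DNA replication genes the pair was in 4 of 40 windows. The windows of Cdca8 (chr4:124936868-124937167, minus strand) and Bub1b (chr2:118597961-118598260, plus strand) are shown because both genes are among the largest differences of their groups, with matches of either motif, on either strand, in capitals.
Cdca8: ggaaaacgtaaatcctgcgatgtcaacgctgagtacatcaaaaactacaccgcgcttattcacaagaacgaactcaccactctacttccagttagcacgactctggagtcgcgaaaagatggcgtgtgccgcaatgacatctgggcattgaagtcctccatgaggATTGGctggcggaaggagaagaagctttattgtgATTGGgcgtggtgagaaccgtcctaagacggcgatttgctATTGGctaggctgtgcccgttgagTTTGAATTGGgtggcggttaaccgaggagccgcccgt
Bub1b: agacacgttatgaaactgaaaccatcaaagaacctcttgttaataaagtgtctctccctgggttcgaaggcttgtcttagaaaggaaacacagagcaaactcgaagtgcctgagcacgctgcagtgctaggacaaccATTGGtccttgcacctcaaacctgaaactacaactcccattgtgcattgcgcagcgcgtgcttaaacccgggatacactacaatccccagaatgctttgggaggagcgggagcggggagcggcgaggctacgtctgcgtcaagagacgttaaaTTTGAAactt
The Cdca8 window holds 5 matches, the last CCAAT box overlapping the TTTGAA, and the Bub1b window holds 2. These matches describe the letters of the windows, and binding was not measured in this comparison.

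DNA replication genes were lower as a group, with 36 of 39 called lower, 1 higher and a median of -2.71 (33 lower and 2 higher within length classes). Mcm6, a subunit of the helicase that opens the double strand, stood at 1.05 and 0.92 in adult and 5.52 in E12.5. Top2a, which untangles replicated chromosomes, stood at 1.43 and 2.01 against 6.19. Gins2, another part of the replicative helicase, differed by -4.60 and Mcm5 by -4.21. The one gene called higher was Orc4 of the origin recognition complex, by 0.77. Synthesis of DNA building blocks was lower as well. Of 18 genes of purine and pyrimidine synthesis 13 were lower and none higher (12 and 1 within length classes), with Rrm2, the regulated subunit of ribonucleotide reductase, at 0.76 and 0.64 against 6.94, thymidine kinase Tk1 at -4.05 and Cad, which starts pyrimidine synthesis, at -2.75. In DNA repair 14 of 18 genes were lower and 2 higher (13 and 2 within length classes). The lower ones included Blm (-2.79) of homologous recombination and the checkpoint kinase Chek1 (-3.03). The 2 higher ones, Xpc (1.07) and Xpa (0.89), both act in nucleotide excision repair.

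Ring complexes that hold chromosomes went both ways. Of 18 genes of cohesin and condensin 8 were lower and 3 higher, and 7 of each within length classes. The lower ones were led by Cdca5 (-3.72), which protects cohesion during mitosis, and the condensin subunits Ncaph (-3.55), Ncapg (-3.50) and Smc2 (-2.66). The 3 higher ones belong to cohesin and its loader: Nipbl stood at 4.83 and 4.93 in adult against 3.72 in E12.5, Stag2 differed by 0.75 and Smc1a by 0.65. Brakes of the cell cycle were also divided, with 5 of 17 higher and 8 lower (7 of each within length classes). The cyclin G gene Ccng1, a p53 target, stood at 8.41 and 8.40 against 5.23, and the antiproliferative Btg2 differed by 1.86. In contrast, the kinase inhibitor Cdkn1c, an imprinted gene, stood at 3.83 and 4.45 against 9.39, Btg1 differed by -2.66, Cdkn1b by -2.25 and the homeobox gene Meis1 by -1.78. Cdkn1a, often used as a sign of arrest, stood at 3.05 and 2.98 against 3.40 and did not pass (difference -0.39, adjusted p = 0.0653; 0.44 within length classes).

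Of the E2F, Myb and Myc factors that regulate these programmes, as activators or repressors, 10 of 12 were lower and 2 higher (8 and 2 within length classes). Mycn, which supports growth of the embryonic ventricle, stood at 1.15 and 1.02 in adult against 4.71, Myc differed by -2.89 and E2f8 by -2.53. Tfdp2, a dimer partner of E2F proteins, was higher by 1.45 and the repressor E2f6 by 0.85.

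**Figure D3:**
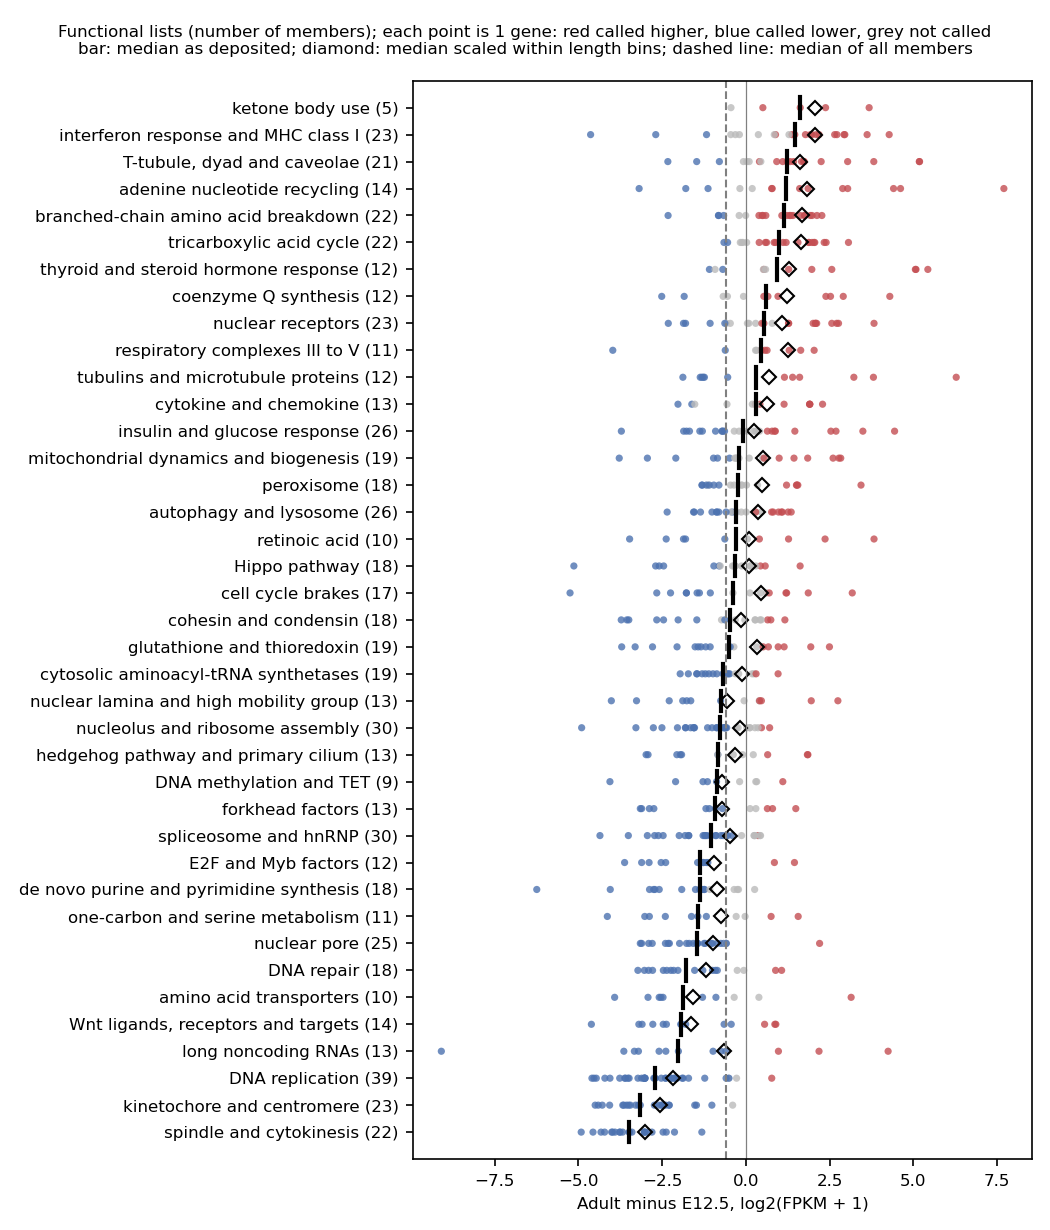
Adult minus E12.5 difference in log2(FPKM + 1) for the members of 39 functional groups (rows, with the number of genes at 5 FPKM or more); red points were called higher in adult, blue points lower and grey points did not pass, bars are medians on the deposited scale, diamonds medians after scaling within length classes, and the dashed line is the median of all 8371 genes. Spindle, kinetochore and replication genes lie at the bottom with medians of -3.48, -3.15 and -2.71, and ketone use and interferon genes at the top.

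The machinery that makes and moves RNA was lower in adult over several complexes. Of 30 spliceosome and hnRNP genes 23 were lower and 1 higher (median -1.04), and 16 lower and 7 higher within length classes. Snrpb, a core protein of the small nuclear ribonucleoproteins, stood at 4.60 in both adult libraries against 7.54, and Hnrnpa0, an RNA-binding protein, at 3.63 and 3.58 against 7.12. Srsf2 differed by -4.36 and Hnrnpl by -2.73, while Srsf4 was higher by 0.36. Among 25 nuclear pore genes 23 were lower (median -1.45), and 19 within length classes. Nup205, of the inner ring, stood at 1.49 and 1.90 against 4.60, and Nup43, Aaas and Tmem48 differed by -3.15, -3.11 and -2.80. The exception was Tpr, of the nuclear basket, at 6.82 and 6.79 in adult against 4.60 in E12.5, a difference of 2.20 that was 2.30 within length classes.

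Ribosome building showed the same direction with a smaller margin. Of 30 nucleolar genes 21 were lower and 2 higher (median -0.77, against -0.58 over all 8371 genes), and 13 lower and 7 higher within length classes. Nop10 and Gar1, which belong to the RNA-guided pseudouridine complex, differed by -4.90 and -3.28, their partner Nhp2 by -2.51 and the polymerase subunit Polr1c by -2.76. Nop14 was higher by 0.47 and Wdr12 by 0.71. Of 19 cytosolic aminoacyl-tRNA synthetases, which charge tRNAs with amino acids, 13 were lower and 2 higher (7 and 4 within length classes). Their median of -0.68 lay near the -0.58 of all 8371 genes. Of all genes, 51.0% were lower, and 36.2% within length classes. The synthetases ran from Vars at -1.96, Hars at -1.72, Gars at -1.47 and Rars at -1.46 to Eprs at 0.96. Amino acid carriers of the cell surface were mostly lower, 7 of 10 with 1 higher (6 and 1 within length classes). Slc38a4 stood at 1.93 and 1.63 against 5.70, Slc1a5 differed by -2.92, the leucine exchanger Slc7a5 by -2.59 and Slc38a1 by -2.54. Slc38a3, a glutamine carrier, went the other way, at 3.83 and 3.84 against 0.69. Serine and one-carbon enzymes included 7 of 11 lower, led by Psat1 of serine synthesis (0.05 and 0.15 against 4.23), Mthfd2 (-3.02), Mthfd1l (-2.88) and Shmt1 (-2.41), and 2 higher, Mtr (1.56) and Gcsh (0.75). Within length classes 5 were lower and 3 higher.

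Chromatin and nuclear envelope genes differed gene by gene. Of 9 genes of DNA methylation 5 were lower and 1 higher, on the deposited scale, and 5 and 2 within length classes. The shares over all 8371 genes were 51.0% lower and 25.3% higher, or 36.2% and 35.8% within length classes. The maintenance methyltransferase Dnmt1 stood at 2.60 and 3.01 against 4.91, its recruiter Uhrf1 at 0.34 and 0.56 against 4.51, and Tet3 and Uhrf2 differed by -1.28 and -1.15. The methyl-CpG reader Mbd2 was higher, at 6.12 and 6.0 against 4.96. Among 13 genes of the lamina and the high mobility group 7 were lower and 4 higher as deposited and within length classes, and 6 of each after median-of-ratios scaling. The B-type lamins Lmnb1 and Lmnb2 differed by -4.02 and -2.29, emerin (Emd) by -1.89 and the nucleosome-binding Hmgn3 by -3.27. Hmgn5, a relative of Hmgn3, stood at 6.26 and 6.45 in adult against 3.61 in E12.5, and Syne1, a nesprin that links the nucleus to the cytoskeleton, was higher by 1.95.

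Energy genes stood on the other side. In the tricarboxylic acid cycle, the final common path of fuel oxidation, 16 of 22 genes were higher in adult and 2 lower, with a median of 1.00, and within length classes 21 were higher and none lower. Sucla2, a subunit of succinyl-CoA ligase, stood at 8.58 and 8.51 in adult and at 5.48 in E12.5 (difference 3.06, SE 0.07, adjusted p = 0.00398). Pdha1, of the pyruvate dehydrogenase complex that feeds the cycle, stood at 8.71 and 8.67 against 6.29, and Idh3b was higher by 2.34. The 2 genes called lower, Sdhb (-0.65) and Sdhd (-0.55) of succinate dehydrogenase, stood at 0.30 and 0.43 within length classes. Summed over the 24 listed genes, the cycle held 6676 and 6606 FPKM in adult and 3700 in E12.5.

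Fuels other than fatty acids had their own sets. All ketone body enzymes that were called were higher (4 of 5). Among them, Oxct1, which activates acetoacetate in tissues that use ketones, stood at 9.16 and 9.09 against 5.44, Bdh1 differed by 2.38 and Acat1 by 1.62. Of 22 genes of branched-chain amino acid breakdown 16 were higher and 4 lower (18 and 1 within length classes), with a median of 1.15. Hibch of valine breakdown stood at 5.92 and 5.89 against 3.64, Mccc1 of leucine breakdown at 5.14 and 5.12 against 3.01, and Acadsb and Pcca differed by 1.98 and 1.92. Bckdk, the kinase that switches off the branched-chain dehydrogenase, was among the lower ones, at 3.52 and 3.38 against 5.78, a difference of -2.32 that was -1.68 within length classes. Another, Hsd17b10, was called lower (-0.82) and stood at 0.31 within length classes.

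Of the respiratory complexes III to V only 11 of 39 listed genes could be described, since 28 were set aside for their copies. Of the 11, 7 were higher and 2 lower (10 and 1 within length classes). Uqcrc1, a core protein of complex III, stood at 8.85 and 9.01 against 7.64, and the muscle forms Cox6a2 and Cox8b of cytochrome oxidase differed by 1.64 and 0.63. Cox4i2, an isoform linked to low oxygen, differed by 2.04 with uneven adult levels of 3.25 and 4.02 (adjusted p = 0.0389). Atp5d, of ATP synthase, stood at 5.97 and 5.87 against 9.89, and Cyc1, called lower by 0.62, stood at 0.34 within length classes. In coenzyme Q synthesis 7 of 12 genes were higher and 2 lower (8 and 2 within length classes). Adck3, which supports the synthesis complex, stood at 6.07 and 6.03 against 1.75, Coq10a differed by 2.91, Coq9 by 2.53 and Coq5 by 2.39, whereas Coq6 and Coq4 differed by -2.51 and -1.84. The ERR half-site AAGGTCA, to which estrogen-related receptors bind in many mitochondrial genes, was in 2 of 57 promoter windows of the tricarboxylic acid cycle, ketone, branched-chain and respiratory genes (3.51%), against 4.72% of all windows and 3.08% of the windows of the genes compared here.

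Energy transfer within the muscle cell was higher in most of its genes. Of 14 genes of adenine nucleotide recycling 9 were higher and 3 lower (10 and 1 within length classes). Ckm, the creatine kinase of the sarcomere, stood at 10.93 and 10.74 in adult against 6.43, and Xdh, which makes uric acid from purines, at 4.42 and 4.84 against 0.01. The AMP deaminase Ampd2 went the other way, at 0.67 and 0.68 against 3.86. Summed over the list, FPKM was 3718 and 3455 in adult and 352 in E12.5. Mitochondrial dynamics and import had no common direction (7 of 19 higher, 6 lower, 9 and 4 within length classes). Mfn1, which fuses outer membranes, was higher by 2.60, the mitochondrial transcription factor Tfb2m by 2.83, Timm23 by 2.78 and the kinase Pink1 by 1.85, while the fission receptor Fis1 stood at 3.02 and 3.04 against 6.81 and the import pore Tomm40 at 2.81 and 2.84 against 5.76. Over the 18 peroxisomal genes 5 were higher and 6 lower, and 7 and 3 within length classes. The phytanic acid oxidase Phyh stood at 8.58 and 8.56 against 5.13, and the assembly genes Pex14, Pex19 and Pex16 differed by -1.31, -1.18 and -1.09. Of 19 antioxidant genes of glutathione and thioredoxin 6 were higher and 11 lower (8 and 6 within length classes), with Gstk1 at 2.50 and Prdx5 at 1.94 against Gpx3 at -3.71, Gpx7 at -3.31, Gpx1 at -2.79 and Mgst1 at -2.06.

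Transcripts of the structures that carry excitation into the muscle cell were mostly higher in adult. In the group of T-tubule, dyad and caveola genes 14 of 21 were higher and 3 lower, with a median of 1.23 (17 and 2 within length classes). Murc, a cavin of muscle caveolae, stood at 6.35 and 6.22 against 1.10, and Cmya5, which lies at the dyad, at 6.57 and 6.51 against 1.36. Tcap, the titin cap that also anchors tubules to the Z-disc, differed by 3.82 and Trdn, which couples the calcium release channel to calsequestrin, by 3.04. Bin1, a membrane-bending protein of the tubule, was lower, at 1.28 and 1.54 against 2.88 (difference -1.47, adjusted p = 0.0147), and so was the cavin gene Prkcdbp (-2.33). Microtubule genes were split evenly, 6 higher and 6 lower of 12, as deposited and within length classes (6 and 5 after median-of-ratios scaling). Tuba8 stood at 6.63 and 6.37 against 0.22, tau (Mapt) at 4.09 and 4.02 against 0.25, Tuba4a at 6.94 and 6.91 against 3.70, and Mtap4, the main microtubule-associated protein of muscle, differed by 1.60. The lower ones included Mtap1a (-1.88), the nucleating Tubg1 (-1.36), the destabilising Stmn1 (-1.31) and the end-binding Mapre1 (-1.27).

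Genes of insulin and glucose response had no common direction (9 of 26 higher, 10 lower, 13 and 8 within length classes). Ppp1r3a, which targets phosphatase to glycogen, stood at 5.71 and 5.70 against 1.26. The adaptors Grb14 and Grb10, which dampen insulin receptor signals, stood opposite each other: Grb14 stood at 7.0 and 7.19 against 3.60 and the imprinted Grb10 at 4.69 and 4.74 against 8.44. Igf1r differed by -1.77, Irs2 by -1.86 and Akt1 by -1.68. Autophagy and lysosome genes likewise went both ways (8 of 26 higher, 11 lower, 11 and 4 within length classes), among them Lamp1 at 1.35, Ulk2 at 1.26, the lysosomal enzyme Gaa at -1.54, Atg4b at -1.56 and Gabarap at -1.36.

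Exchange between genes of like function was examined in 40 pairs, in each of which 1 gene was taken as the early form and 1 as the mature form. These names are those of the list. Some pairs, such as Stmn1 and Mtap4, join different microtubule regulators, and some early forms are also genes of vessels. A larger share could be a small one, as for Cdh13 of Cdh2 and Cdh13 (19.8% and 20.1% in adult, 19.2% in E12.5). In 13 pairs at least 1 gene was set aside for its copies. In 21 of the other 27 the mature form made up a larger share of the summed FPKM of its pair in both adult libraries than in E12.5. In 11 pairs limma called the mature form higher and the early form lower (10 after median-of-ratios scaling). The pairs were not all the same. Hk1 and Hk2, Pfkp and Pfkm, and Hcn4 and Hcn2 passed only as deposited, and neither Hcn gene reached 5 FPKM. Myl4 and Myl3, and Lmnb1 and Lmna, passed only after that scaling. Myh6 made up 96.6% of Myh6 and Myh7 in both adult libraries and 11.7% in E12.5, with Myh6 at 13.27 and 13.21 against 7.72 and Myh7 at 8.46 and 8.40 against 10.63. The insulin-responsive glucose transporter Slc2a4 made up 98.0% and 97.5% of Slc2a1 and Slc2a4 in adult and 16.6% in E12.5. Among hexokinases, Hk2 took 52.0% and 54.7% in adult and 18.1% in E12.5. The Polycomb methyltransferase Ezh1 took 62.3% and 59.2% of Ezh1 and Ezh2 against 15%, and Ezh2, the form of dividing cells, differed by -1.77.

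In several pairs the share moved mainly through the early partner. Lamin A (Lmna) took 82.1% and 79.0% of Lmna and Lmnb1 in adult and 17.6% in E12.5, although Lmna itself stood at 4.08 in both adult libraries and 4.13 in E12.5, not called as deposited and called higher after median-of-ratios scaling. Connexin 43 (Gja1) took 99.2% and 98.8% of Gja1 and Gja5 against 59.0%, with Gja1 higher by 0.74 and Gja5 lower at -4.81. The light chain Myl3 took 97.3% and 98.3% of Myl3 and Myl4 against 49.6%, with Myl4 at -5.31 and Myl3 at 0.23, not called as deposited and called higher after median-of-ratios scaling (0.79) and within length classes (1.37). The adult libraries lay within 10 percentage points of each other in every pair except Flna and Flnc, where the share of Flnc was 67.7% and 54.5% in adult around 59.6% in E12.5.

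Against the general direction, 6 pairs did not show a larger share of the mature form in both adult libraries. Cav3, the muscle caveolin, took 62.2% of Cav1 and Cav3 in E12.5 and 18.7% and 13.5% in adult. Cav1, abundant in endothelium, stood at 6.70 and 7.0 in adult against 4.60, and Cav3 at 4.63 and 4.37 against 5.29, called lower as deposited and at 0.14 within length classes. Cpt1b, the muscle form of the enzyme that admits long-chain fatty acids to mitochondria, stood at 0.87 and 0.22 in adult (30 and 6 reads) against 2.67 in E12.5 (327 reads), and took 9.64% and 2.19% of Cpt1a and Cpt1b in adult against 40.5%. The adult shares of Cpt1b rest on few reads. Gene overlaps were examined on GRCm38.p6 only and not on mm9, the build of the study, so its level is uncertain. Map1lc3a took 79.9% in E12.5 and 57.0% and 58.9% in adult, with its relative Map1lc3b higher by 1.09. Kcnj11, a pore subunit of ATP-sensitive potassium channels, took 85.7% in E12.5 and 60.8% and 61.6% in adult, with Kcnj11 at 3.97 and 3.82 against 3.78, not called as deposited and called higher after median-of-ratios scaling, and Kcnj8, the form of vessel walls, at 3.39 and 3.20 against 1.64. Prkaa2 and Flnc completed the 6.

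**Figure D4:**
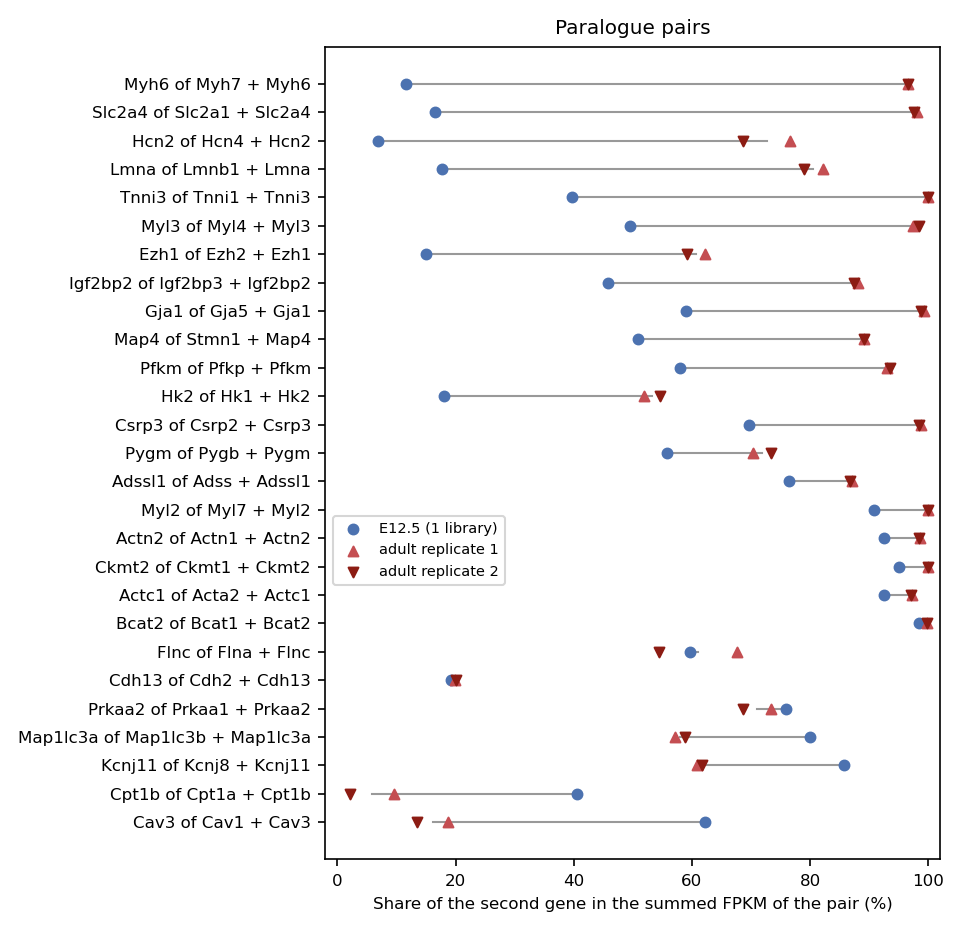
Share (%) of the second, mature gene in the summed FPKM of each of 27 pairs, with E12.5 as circles and the adult libraries as upward (replicate 1) and downward (replicate 2) triangles; the grey line joins E12.5 to the adult mean. Myh6 moves from 11.7% to 96.6%, and Cav3, Cpt1b, Kcnj11 and Map1lc3a move the opposite way.

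Some of these genes carry a microRNA in an intron. Of the RefSeq hairpins, 315 lie on the same strand within 294 of the genes compared here. By the rule of size 36 host genes were higher in adult and 124 lower, or 58 and 75 after median-of-ratios scaling. Over all 8371 genes the same rule gave 16.9% higher and 39.5% lower, or 25.9% and 25.7% after that scaling. The host counts are given beside these shares only as a description. The mature microRNAs themselves were not measured in this comparison. The microRNAs of 3 myosin genes are shown because their hosts went in different directions, with the seed (bases 2 to 8) in capitals. miR-208a-3p lies in Myh6 (chr14:54949072-54949093, minus strand, GRCm38.p6), whose transcript was higher by 5.52. miR-208b-3p lies in Myh7 (chr14:54975710-54975731, minus strand), whose transcript differed by -2.20. miR-499-5p lies in Myh7b (chr2:155622893-155622913, plus strand), which stood at 5.35 and 5.28 in adult against 4.09 and was included after its value had been seen.
mmu-miR-208a-3p: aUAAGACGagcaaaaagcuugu
mmu-miR-208b-3p: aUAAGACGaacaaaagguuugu
mmu-miR-499-5p: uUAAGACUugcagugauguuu
The first pair shares 1 seed, UAAGACG, and miR-499-5p has UAAGACU. The hosts Mest and Igf2, both imprinted, carry miR-335 and miR-483, whose main arms are shown because their hosts had 2 of the largest decreases, -7.56 and -6.85.
mmu-miR-335-5p: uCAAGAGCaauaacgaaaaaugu
mmu-miR-483-3p: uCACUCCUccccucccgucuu
They lie at chr6:30741314-30741336 on the plus strand and at chr7:142654932-142654952 on the minus strand.

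Long noncoding RNAs were mostly lower, 10 of 13 with 3 higher (7 and 3 within length classes). Besides H19, the imprinted Rian (0.70 and 0.69 against 4.34) and Meg3 (0.53 and 0.49 against 3.72) and the growth arrest transcript Gas5 (3.59 and 3.92 against 7.08) were called lower. The 2 abundant nuclear RNAs went up: Neat1, the scaffold of paraspeckles, stood at 7.19 and 7.36 against 3.03 and Malat1 at 11.05 in both adult libraries against 8.86.

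Among developmental signals the Wnt pathway had 11 of 14 genes lower, 3 higher and a median of -1.94 (9 and 3 within length classes). The receptor Fzd2 stood at 0.76 and 0.58 in adult against 5.28, the co-receptor Ror2 at 0.16 and 0.17 against 3.36, the secretion factor Wls at 3.25 and 3.31 against 6.38 and the ligand Wnt5a at 1.20 and 1.15 against 3.95. The receptors Lrp6 (0.89) and Fzd4 (0.86) were higher. A further 18 of the 33 listed Wnt genes stayed below 5 FPKM at both stages. In the Hippo pathway, which limits organ size, 6 of 18 genes were lower and 3 higher (4 and 5 within length classes). Its median was -0.34, above the -0.58 of all 8371 genes, of which 51.0% were lower and 25.3% higher. Its DNA-binding partner Tead2 stood at 1.28 and 1.00 against 6.27, Tead3 differed by -2.59, Jub by -2.69 and Vgll4 by -2.46, while the target Cyr61 was higher by 1.62 and the upstream regulator Nf2 by 0.58. Hedgehog and cilium genes were lower in 6 of 13 and higher in 3 (5 of each within length classes), with a median of -0.84. The co-receptors Gas1 (-2.92) and Cdon (-1.96), the inhibitor Sufu (-2.06) and Ift27 (-2.98) were lower. The transport proteins Ift81 (1.85) and Ift57 (1.84) were higher.

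Hormone response genes were more often higher than lower. Of 12 genes of thyroid and steroid response 7 were higher and 2 lower (7 and 1 within length classes), with a median of 0.93. Thrsp, a thyroid-responsive gene of lipid synthesis, stood at 5.74 and 6.02 in adult against 0.45. Klf9, induced by thyroid hormone and glucocorticoid, stood at 5.92 and 6.35 against 1.05, Zbtb16, induced by glucocorticoid, at 4.84 and 5.77 against 0.25, and the receptor Thrb at 2.83 and 2.89 against 0.29. Slc16a10, which carries thyroid hormone across the cell membrane, was lower, at -0.69. Nuclear receptors as a family had 12 of 23 higher and 5 lower (14 and 5 within length classes). Rxrg stood at 4.14 and 4.2 against 0.34, the lipid sensor Pparg at 2.88 and 3.37 against 0.36 and the clock gene Nr1d2 at 4.38 and 4.64 against 1.8, while Nr2f6 differed by -2.32 and the retinoic acid receptor Rara by -1.86. In the retinoic acid group (4 of 10 higher and 5 lower as deposited and within length classes, 4 of each after median-of-ratios scaling), Aldh1a1 was higher by 2.36, and Aldh1a2, the retinoic acid enzyme of the epicardium, was lower at -2.38 together with Rxrb (-1.8). Forkhead factors were lower in 8 of 13 and higher in 3 (7 and 5 within length classes), from Foxc2 (-3.15), Foxm1 (-3.11), Foxc1 (-2.88) and Foxp4 (-2.75) to Foxj2 (1.49) and Foxj3 (0.80). Over all 8371 genes 51.0% were lower and 25.3% higher, or 36.2% and 35.8% within length classes. The forkhead and retinoic acid counts are given beside these shares only as a description. None of the 22 listed Hox genes reached 5 FPKM at either stage.

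Innate defence and antigen presentation were higher in adult in 14 of 23 genes and lower in 3 (18 and 2 within length classes), with a median of 1.46. The summed level of the list went the other way, at 348 and 435 FPKM in adult against 606 in E12.5. The class I heavy chain H2-D1 stood at 5.14 and 5.24 against 1.57, the peptide transporter Tap2 at 3.07 and 3.43 against 0.30, and the interferon-induced GTPase Iigp1 at 4.2 and 4.84 against 0.24. H2-Q6 stood at 2.79 and 3.07 and had no read in E12.5. Class I genes are closely related in sequence, so the values of H2-D1 and H2-Q6 are uncertain. Ifitm2 (3.28 and 3.17 against 7.86) and Bst2 (-2.69) were lower, as was the class I light chain B2m, at 6.67 and 6.92 against 7.97, which stood at -0.04 within length classes. Lymphocyte markers were near 0: 14 of 15 lay below 1 FPKM in every library, Nkg7 and Klrd1 at 0, and their sum was 0.779 and 1.21 FPKM in adult and 1.64 in E12.5. Macrophage markers summed to 52.0 and 73.6 FPKM in adult and 68.8 in E12.5, with Lyz2 the highest at both stages. Their part in the result was not tested. Cytokine and chemokine genes had 7 of 13 higher and 2 lower (8 and 2 within length classes), with the receptors Il10rb (2.29), Osmr (1.91) and Il11ra1 (1.91) and the feedback inhibitor Socs2 (1.90) higher and Ccl2 (-2.03) and Tnfrsf1a (-1.61) lower.

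Marker genes of the cell populations of the heart went both ways in some lists and one way in others. For capillary and arterial endothelium 12 of 20 genes were higher and 5 lower (13 and 3 within length classes), with a median of 1.14 and a summed level of 1601 and 1817 FPKM in adult against 391 in E12.5. Fabp4 alone held 944 FPKM of the adult mean. It stood at 9.82 and 9.95 against 3.23, the carbonic anhydrase Car4 at 5.96 and 6.47 against 1.14, Rbp7 at 6.0 and 6.58 against 1.24, and Gpihbp1, which anchors lipoprotein lipase, at 6.15 and 6.75 against 1.60. Pecam1, an adhesion molecule of endothelium, stood at 5.82 and 5.89 against 4.79, Cdh5 at 6.30 and 6.36 against 5.95, and Tek at 4.64 and 4.74 against 4.76, which did not pass as deposited (adjusted p = 0.526) and was called higher, by 0.47, after median-of-ratios scaling. Sox18, a factor of forming vessels, and Emcn were lower, with differences of -1.53 and -1.34. Endocardial and valve genes were lower in 9 of 10, with none higher and a median of -2.54 (9 and 1 within length classes). Plvap stood at 2.31 in both adult libraries against 6.56, the matrix proteoglycan Vcan at 1.30 and 1.44 against 5.38, Cdh11 differed by -3.51, and Prrx2 had no read in adult.

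Markers of mural cells and fibroblasts went both ways. Of 14 smooth muscle and pericyte genes 8 were higher and 5 lower (9 and 4 within length classes). Smooth muscle myosin Myh11 stood at 5.46 and 5.72 in adult against 0.08, Rgs5 at 6.52 and 6.56 against 0.34 and Lmod1 differed by 2.40. Cnn1, which embryonic heart muscle also expresses, stood at 2.34 and 2.53 against 6.75, Mcam differed by -2.36, and Acta2, likewise expressed by embryonic heart muscle, stood at 7.03 in both adult libraries against 8.56. Of 10 fibroblast genes 5 were higher and 5 lower, also after median-of-ratios scaling and within length classes. The higher ones were Dpt (4.19 and 4.23, with level 0.00 in E12.5), Pi16 (2.60), Dcn (2.10), Lum (1.67) and Gsn, and the lower ones were Tcf21 (-3.13), Fbln1 (-2.52), Col1a1 (-1.96), Col1a2 (-1.75) and Col3a1. The 7 epicardial genes at 5 FPKM or more were all lower, also after median-of-ratios scaling and within length classes. They ran from Krt19 (0.71 and 0.56 against 5.13), Upk3b (-3.64) and Tbx18 (-3.09) to Wt1. In the adult mean none reached 5 FPKM, the highest being Upk3b at 2.49 FPKM. These genes thus entered only through E12.5, which fixed their direction in advance. A further 5 listed genes stayed below 5 FPKM at both stages.

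**Figure D5:**
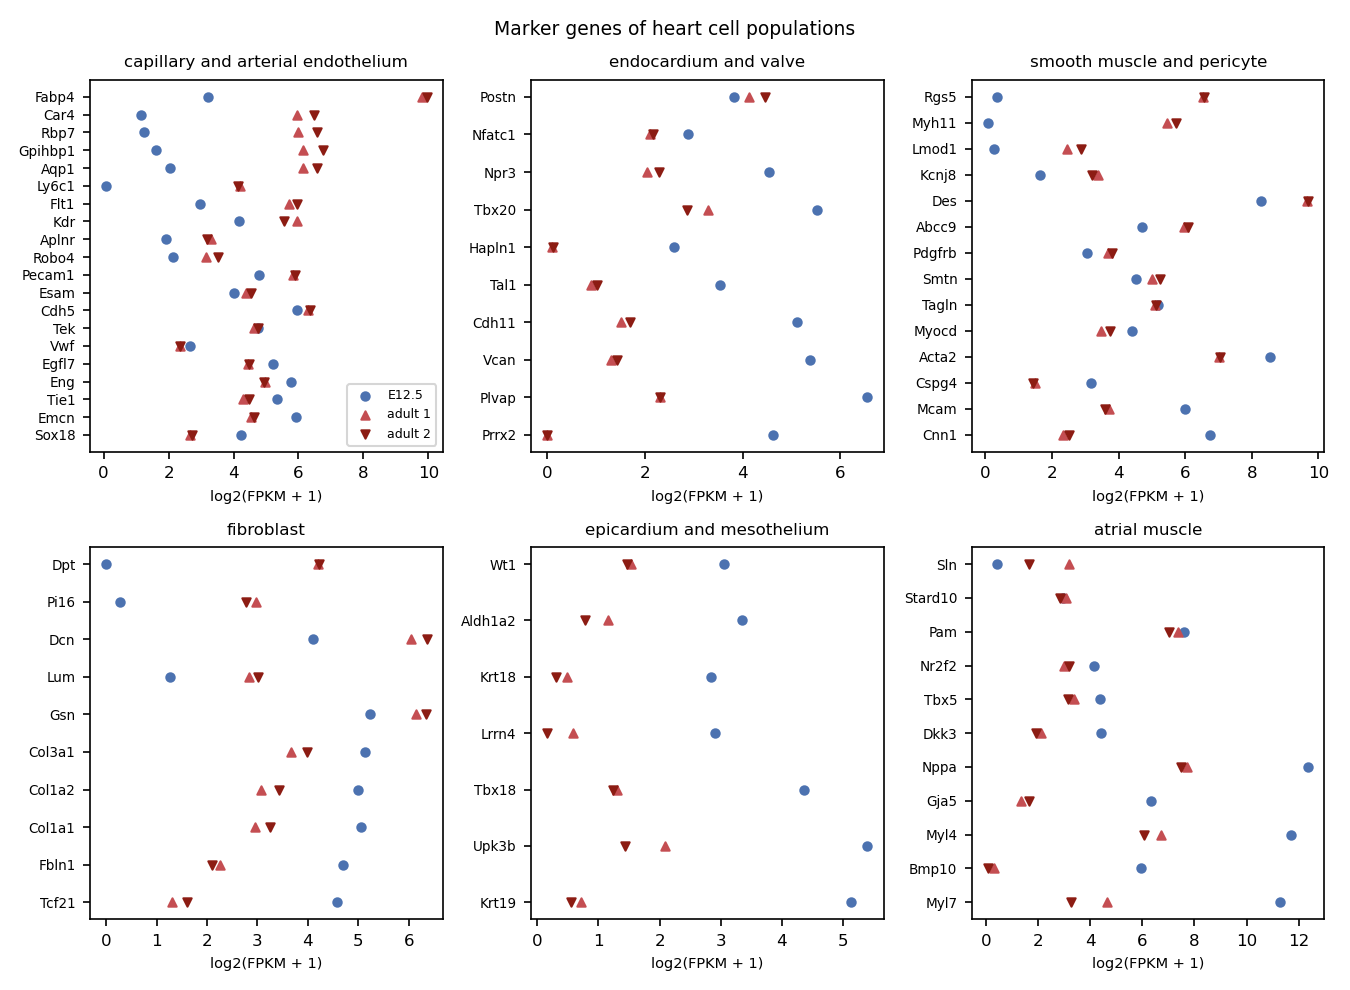
Level of each marker gene in log2(FPKM + 1) in E12.5 (circles) and in adult replicates 1 and 2 (triangles) for 6 populations, with genes sorted by difference. Capillary genes such as Car4 and Gpihbp1 lie far to the right in adult, and Cdh5 and Tek nearly coincide. The 7 epicardial markers shown, which reached 5 FPKM only in E12.5, are lower in adult.

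Atrial markers were lower in 8 of 11 genes, with none called higher (7 and 1 within length classes), and the adult libraries differed in them. Bmp10, a trabecular and atrial growth factor, stood at 0.31 and 0.09 in adult against 5.95, Myl4 at 6.72 and 6.09 against 11.71, and Gja5, also found in trabeculae and the conduction system, at 1.35 and 1.67 against 6.32. Sln, the atrial regulator of the calcium pump, stood at 3.18 and 1.67 in adult (53 and 14 reads) against 0.45 and did not pass (adjusted p = 0.136). Myl7, Myl4, Sln and Nppa were each higher in adult replicate 1 than in replicate 2. Summed over the 14 listed markers, FPKM was 538 and 414 in adult and 11575 in E12.5. Most of the E12.5 sum came from Nppa (5301), Myl4 (3357) and Myl7 (2516). Whether these genes mark only atria at E12.5 was not tested. The labels do not say which chambers were taken, and the part of chamber content in these values was not tested.

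Markers of lung and liver lay mostly below 1 FPKM. Of 10 lung and airway markers 9 lay below 1 FPKM in all 3 libraries, with Sftpc, Sftpa1, Scgb1a1 and Cldn18 at 0, and of 14 liver and foregut markers 11 did, with Apoc3 and Foxa2 at 0. The skeletal muscle factors Myf5 and Myf6 were at 0 in every library, and 15 of 22 skeletal markers lay below 1 FPKM. The skeletal list summed to 2009 and 1774 FPKM in adult and 181 in E12.5, of which Ckm, also a heart gene, held 1835 in the adult mean. Of 12 markers of thymus and skeletal precursors 11 lay below 1 FPKM in every library, and Col2a1 stood at 11.1 FPKM in E12.5. Of skeletal genes shared with the heart, Mybpc2 and Myl1 were higher by 3.03 and 0.99, and Tnni2 and Mylpf were lower, Tnni2 at 1.28 and 1.15 against 5.77. Adipocyte markers summed to 1873 and 1954 FPKM in adult and 67.6 in E12.5, of which Fabp4 alone held 944 in the adult mean. The 4 genes of this list at 5 FPKM or more, Fabp4, Lpl (4.09), Dgat2 (3.57) and Cidea (2.36), were higher, and 7 of the 13 markers lay below 1 FPKM in every library. Of the red cell list, which also names the adult globins Hba-a1, Hbb-b1 and Hbb-b2, 3 genes were set aside for their copies. The 11 genes kept summed to 28.0 and 28.8 FPKM in adult and 21335 in E12.5. The highest of them was Tfrc in adult (21.1 FPKM) and Hbb-y in E12.5 (13426), so these sums do not measure the adult globins. Nerve and Schwann cell markers stood low, with 11 of 17 below 1 FPKM, and Pmp22 and Cnp called lower with differences of -1.56 and -2.52.

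Some genes had reads at only 1 stage. In all, 67 of the 8371 genes had no read in either adult library and 22 had none in E12.5. With at least 20 FPKM at the other stage there were 13 and 1. The 13 silent in adult were the globins Hba-x, Hbb-bh1 and Hbb-y, the red cell anion exchanger Slc4a1, the troponin Tnni1, the transcription factors Hand1 (4.96 in E12.5), Prrx2 (4.63) and Sox3 (4.55), the RNA-binding Igf2bp1 (4.58), the growth factor binder Igfbp2 (5.24), the angiogenesis regulator Vash2 (4.58), the growth cone protein Gap43 (5.07) and the steroid enzyme Hsd3b6 (4.61). Against a floor of 3 reads, Igf2bp1 was at least 790-fold higher in E12.5, Hand1 at least 236-fold and Hsd3b6 at least 86.7-fold. The 1 gene silent in E12.5 was the transcript 4932411L15, with 847 and 861 reads in adult and none in E12.5.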

How the data were processed

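Values were log2(FPKM + 1) per gene as deposited by the authors, which the data bear out: 98043 of 98043 values above 0 in the RNA-seq libraries corresponded to whole reads within 0.001 read. Per the submitters' processing notes the study used TopHat 1.4, HTSeq 0.5.3, BWA 0.5.9, MACS 1.4 and CASAVA 1.8.2 with genome build mm9, with no role stated for each. Pooled RNA (2 µg) was poly(A)-selected and primed with random hexamers, per the labels' protocols. Differences, tested in limma 3.58.1 (R 4.3.3, mean-variance trend, Benjamini-Hochberg adjustment), compared 2 adult libraries with 1 E12.5 library, which leaves 1 residual degree of freedom. The fit was tested on simulated data in which E12.5 was given the same spread as adult, so that assumption itself was not tested. Groups of genes were described by counts and medians without a test. The genes compared and the lists were chosen with earlier results of these data known. Named genes were Gata4, the 10 largest called differences in each direction, the 10 highest levels of each stage, up to 4 members of each list in its direction and up to 2 against it, the pairs, defining markers of other tissues and genes at 20 FPKM or more at 1 stage only. Cdkn1a, Cdh5, Pecam1, Tek, Acta2, Gsn, Col3a1, Wt1, Myh7b and the genes in the closing section fall outside that rule and were chosen after their values were seen. Predicted genes and small RNAs (648 of the 8371) were counted and not named, except 4932411L15. ChIP-seq and other samples were not used here. Sequences and overlaps came from RefSeq tables on GRCm38.p6, and no coordinate of the deposited files was mixed with them. Alternatives covered scaling, pseudocount, filter, fold, variance model, E12.5 library and each adult library left out. Some members of the lists are counted in them and not reported here by name.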

Additional observations from a re-analysis of the deposited data

How the results depend on the processing

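With 1 E12.5 library the stage cannot be told apart from that library, and short reads limit what can be said of genes with copies. No paired analysis was possible because E12.5 has 1 library and no replicate number pairs it with adult. Leaving out an adult library leaves limma no residual degrees of freedom, so this was run by size only. Over all 12658 genes tested, limma called 2965 higher and 6123 lower, and its alternatives gave 2391 to 4234 and 4164 to 6805. By size, 1411 genes were higher and 3306 lower. Median-of-ratios scaling gave 2257 and 2152, scaling within length classes, chosen after the data were seen, gave 2206 and 2034, and a 4-fold minimum gave 669 and 1774. Without an adult replicate in turn the counts ran from 1456 to 1557 higher and from 3450 to 3499 lower. These counts choose the genes at 5 FPKM anew on each scale. The cause of the movement with scaling was not tested. Of 45 lists with 5 or more genes, the majority direction was the same in 37 after median-of-ratios scaling, in 37 within length classes, in 38 after upper-quartile scaling, in 39 without the 50 highest genes, in 43 with the library labelled Gata4 KO and in 45 with either other pseudocount. The cohesin, peroxisome, insulin, autophagy and Hippo lists were among those that changed under each of the 4 scalings.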

Other observations

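Grouping the 8371 genes by the letters that open their symbols gave further families. These families and genes were picked after their values were seen and are given as values only. The Asb genes, which encode substrate adaptors of ubiquitin ligases, had 6 of 10 members higher in adult and 2 lower (8 and 2 after median-of-ratios scaling), with a median of 2.42. Asb14, Asb15, Asb11 and Asb5, all known from striated muscle, differed by 4.32, 4.25, 4.25 and 3.40, while Asb6 and Asb4 differed by -1.80 and -1.78. The Pde stem, mostly cyclic nucleotide phosphodiesterases, had 8 of 11 members higher and 1 lower, with a median of 2.14. The higher ones included Pde1c (2.50), Pde3a (2.37), Pde8a (2.35) and Pde2a (2.14). Pde6d, a prenyl-binding protein and not an active phosphodiesterase on its own, was the lower one, at -3.02.

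The Snhg genes, whose introns carry small nucleolar RNAs, had 9 of 10 members lower and none higher (8 lower after median-of-ratios scaling), with a median of -2.69, led by Snhg9 (-5.95), Snhg8 (-3.96) and Snhg6 (-3.59). They are short, so that the relation of the difference to gene length touches them, and its part was not tested. Collagen genes, some of them fibroblast markers given above, had 15 of 18 members lower and 2 higher, with a median of -2.18.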
